A study of Mus musculus with 3 samples.

Results

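The adrenomedullin and CGRP receptor genes described here are *Calcrl*, *Ramp1*, *Ramp2*, *Ramp3*, *Adm* and *Calca*. They were chosen by symbol as a known signalling system, all 6 have a row in the deposited table, and they are 6 of its 24346 genes. The values are bulk RNA-seq levels of endothelial cells (ECs) from the lungs of wild-type adult C57BL/6J mice, which the methods of the study give as males of 6 to 8 weeks. There are 3 libraries, S38, S44 and S52, and they form 1 group, so no condition, organ or age is compared. Adult mice received an antibody to VE-cadherin in the circulation before the organs were taken, and freshly dissociated cells were sorted with antibodies to CD31, CD45 and podoplanin. For kidney ECs the paper describes the sorted cells as positive for CD31 and negative for CD45 and podoplanin, thus non-lymphatic. Its text gives no separate gate for the lung. Labels do not say whether each library came from a separate mouse or from pooled mice, so the spread between libraries may be partly technical.

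Adrenomedullin (*Adm*) and calcitonin gene-related peptide (CGRP, one product of *Calca*) are peptides that widen blood vessels. Both act on the same seven-helix receptor, encoded by *Calcrl*, which reaches the cell surface and gains its ligand preference only when paired with a receptor activity-modifying protein (RAMP). With RAMP1 the pair is the CGRP receptor, and with RAMP2 or RAMP3 it is an adrenomedullin receptor. These pairs couple mainly to the stimulatory G protein and cyclic AMP. In mice, endothelial adrenomedullin signalling through *Calcrl* and *Ramp2* is known for its part in the growth and barrier of blood and lymphatic vessels.

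Values are FPKM, fragments scaled by gene length and by library size, so levels of different genes can be set side by side. Step patterns in the low values place the depth at about 37980000 fragments for S38, 38840000 for S44 and 33860000 for S52. A gene was taken as detected at a mean of 1 FPKM or above, which 48.3% of all genes reached. The endothelial markers *Pecam1*, *Cdh5*, *Kdr*, *Tek*, *Tie1*, *Erg*, *Emcn*, *Cldn5*, *Egfl7* and *Esam* were all above 10 FPKM in every library, with a list median of 482 FPKM in S38, 533 in S44 and 484 in S52. Lymphatic markers were mixed, and 5 of the 6 listed were detected. *Prox1*, the defining lymphatic regulator, had a mean of 0.301 FPKM, while *Lyve1* had a mean of 509 FPKM. Between them, *Flt4* had a mean of 22.4 FPKM, *Mmrn1* 12.4, *Ccl21a* 6.59 and *Pdpn* 2.44. In S38, S44 and S52, *Mmrn1* was at 19.4, 17.6 and 0.236 FPKM and *Ccl21a* at 9.4, 10.3 and 0. S52 stood apart in markers of other cells. Summed over 4 platelet genes, the FPKM of S38, S44 and S52 came to 1692, 1345 and 37.96, and summed over 5 alveolar type 2 genes to 3778, 3164 and 755.

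All 6 members had a mean of at least 1 FPKM, beside 48.3% of all genes. Of the 6, 4 had at least 1 FPKM in every library, and without S38 the mean of 4 reached it. Shares of all genes in every library and without S38 were not counted. The members spanned from near that threshold to among the most abundant transcripts in the table. *Ramp2* and *Calcrl* were far above the rest, *Ramp3* and *Adm* were intermediate, and *Calca* and *Ramp1* were close to the threshold. Means of at least 10 FPKM were found for *Ramp2*, *Calcrl* and *Ramp3*, 3 of the 6, where 25.7% of all genes reached that level. In the order of the means, the neighbours *Ramp2* and *Calcrl*, *Calcrl* and *Ramp3*, *Ramp3* and *Adm*, and *Adm* and *Calca* each had the same order in 3 of 3 libraries with ranges that did not overlap. *Calca* and *Ramp1* overlapped and changed places between libraries. With 3 pairs an exact permutation test cannot give a two-sided p below 0.25, so the order is given as a description.

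**Figure D1:**
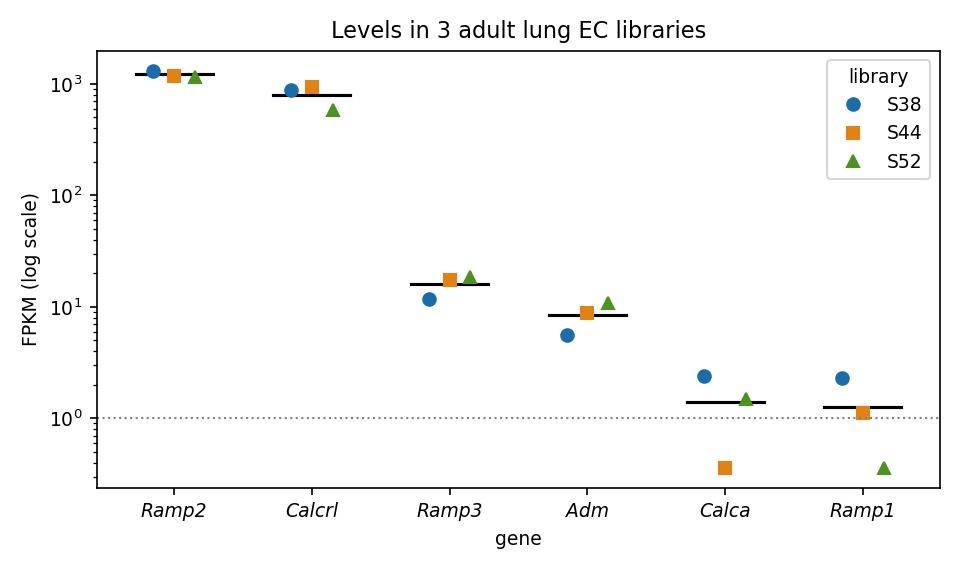
FPKM of the 6 genes (log axis) in each of the 3 libraries, with a bar at the mean and a dotted line at 1 FPKM. *Ramp2* and *Calcrl* sit between 578 and 1314 FPKM, *Ramp3* and *Adm* between 5.63 and 18.7, and *Calca* and *Ramp1* between 0.359 and 2.38.

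RefSeq sequence before the annotated start was matched for 5 of the 6 genes in a table of the GRCm38.p6 build, all but *Ramp2*. Over 250 bases, *Calcrl* had 3 CG pairs, *Ramp1* 4, *Calca* 4, *Adm* 7 and *Ramp3* 13, where the median of 32851 promoters was 6. As many as 13 were present in 31.5% of those promoters and 3 or fewer in 37.8%. Part of these 250 bases is shown for *Calcrl* and *Ramp3*, receptor genes that differed 49.9-fold in mean level and most in CG pairs. It runs from 5′ to 3′ on the strand of the gene. It is cut where the GENCODE M21 annotation begins the first exon, which is before the end of the 250 bases, and capitals mark CG pairs. The bases past that point, nearest the RefSeq start, are not shown. The *Calcrl* stretch is chr2:84425412-84425516, minus strand, and the *Ramp3* stretch is chr11:6658283-6658520, plus strand.
Calcrl: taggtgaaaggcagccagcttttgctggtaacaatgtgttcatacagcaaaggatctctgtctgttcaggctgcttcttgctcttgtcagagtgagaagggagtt
Ramp3: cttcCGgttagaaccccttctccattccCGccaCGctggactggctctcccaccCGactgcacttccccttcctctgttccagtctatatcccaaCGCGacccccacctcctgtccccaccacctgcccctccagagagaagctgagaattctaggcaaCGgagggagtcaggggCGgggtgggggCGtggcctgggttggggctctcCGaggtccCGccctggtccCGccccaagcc
The 105 bases of *Calcrl* hold 0 CG pairs and the 238 bases of *Ramp3* hold 12. The 3 pairs counted for *Calcrl* thus lie in the bases not shown. The gene with the higher level had the fewer pairs here, and 5 genes give no test of a relation.

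The accessory protein genes were dominated by *Ramp2*, whose product gives the *Calcrl* receptor its main adrenomedullin-binding form. *Ramp2* (ENSMUSG00000001240) lies on the plus strand of GRCm38 chromosome 11, from 101246028 to 101259546. It was at 1314 FPKM in S38, 1178 in S44 and 1159 in S52, a mean of 1217 ± 84.4 FPKM (SD, n = 3). As deposited, the libraries were close to each other, with the highest 1.13-fold above the lowest. This span depended on scaling: it was 1.55-fold with the columns rescaled to the same sum, 1.23-fold to the same endothelial median and 1.10-fold to the same upper quartile. Its mean ranked 75 among all genes, just above *Pecam1*, at 1168 ± 45.5 FPKM (SD, n = 3), which encodes the CD31 antigen used in the sort. *Pecam1* and *BC028528* were the 2 genes whose levels over the 3 libraries were nearest to those of *Ramp2*, at distances of 0.23 and 0.24 on the log2(FPKM + 1) scale. An annotated transcript of *Ramp2*, 1 of 8, runs on into exons of the neighbouring *Vps25*, on the same strand, and fragments there could be assigned to either gene. *Vps25* was at 90.9, 113 and 90.3 FPKM in the 3 libraries, far below *Ramp2*, and neither basic transcript of *Ramp2* overlaps it.

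*Ramp3*, which pairs with *Calcrl* in the other adrenomedullin receptor, was far lower. The gene (ENSMUSG00000041046) occupies chromosome 11, plus strand, positions 6658521 to 6677475. Its level was 11.8 FPKM in S38, 17.5 in S44 and 18.7 in S52, a mean of 16.0 ± 3.67 FPKM (SD, n = 3), and S38 was below the other libraries. The level ranked 4661, above 80.9% of genes. *Gna14*, a G protein alpha subunit gene, and *Flywch1* were nearest to *Ramp3* over the 3 libraries, both at a distance of 0.11. The pseudogene *Gm11978* lies on the opposite strand across the start of *Ramp3* and shares 54 of 1183 read-length windows with it, and the library kit does not mark strand. It was listed at 0 in every library.

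*Ramp1*, which turns *Calcrl* into the CGRP receptor, was the lowest of the members by mean. The gene (ENSMUSG00000034353) occupies chromosome 1, plus strand, positions 91179822 to 91225196. It was at 2.30 FPKM in S38, 1.12 in S44 and 0.362 in S52, a mean of 1.26 ± 0.978 FPKM (SD, n = 3). Each library differed from the others, and S52 was below the detection threshold. These values stand for an estimated 189, 95 and 27 fragments. The 95% exact Poisson intervals, which cover counting error only, were 1.98 to 2.65 FPKM in S38, 0.914 to 1.38 in S44 and 0.242 to 0.533 in S52. The intervals did not overlap, so the differences between these libraries were larger than counting error on this estimate. Without S52 the mean would be 1.71 FPKM and without S38 it would be 0.743 FPKM, below the threshold.

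Within the summed FPKM of the 3 *Ramp* genes, *Ramp2* made up 98.9% in S38, 98.4% in S44 and 98.4% in S52, a mean of 98.6% ± 0.303 (SD, n = 3). *Ramp3* made up 1.31% ± 0.371 and *Ramp1* 0.0993% ± 0.0715 (SD, n = 3 for each), and without S38 the *Ramp1* share would be 0.0623%. *Ramp2* exceeded *Ramp3* by 6.68, 6.00 and 5.88 on the log2(FPKM + 1) scale in S38, S44 and S52, and exceeded *Ramp1* by 8.64, 9.12 and 9.73. On this scale the difference from *Ramp1* is understated. *Ramp3* was above *Ramp1* in 3 of 3 libraries. RNA levels do not give the amounts of the receptor pairs on the surface, which were not measured.

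**Figure D2:**
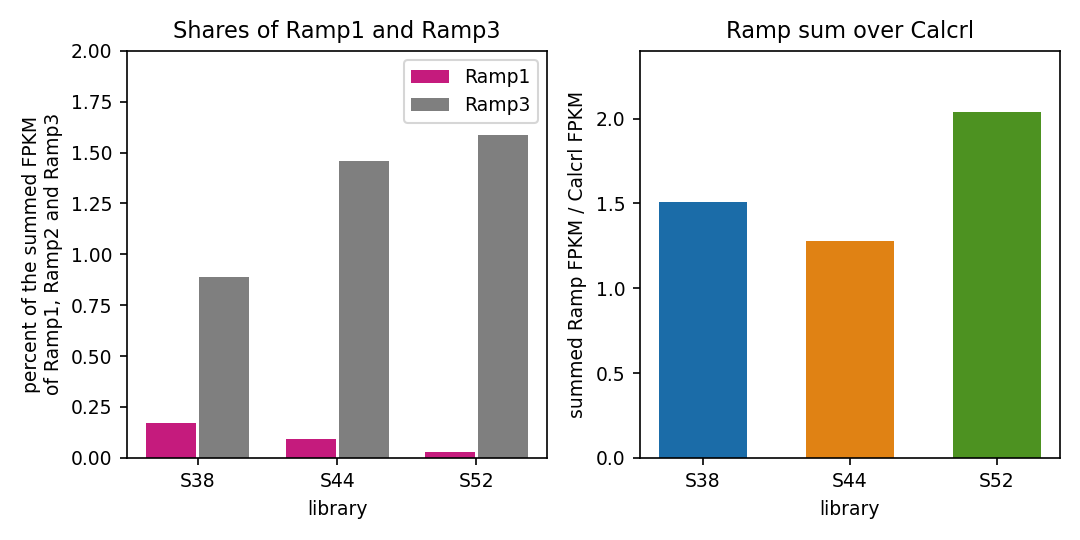
Left, percent of the summed FPKM of *Ramp1*, *Ramp2* and *Ramp3* taken by *Ramp1* and *Ramp3* in each library; the remainder is *Ramp2*, at 98.4% to 98.9%. Right, the summed FPKM of the 3 *Ramp* genes divided by that of *Calcrl*, with values of 1.51 for S38, 1.28 for S44 and 2.04 for S52.

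*Calcrl*, the receptor shared by both peptides, lies on the minus strand of chromosome 2 from 84330626 to 84425411 (ENSMUSG00000059588), and its longest basic transcript has 16 exons and 4882 bases. It was at 879 FPKM in S38, 934 in S44 and 578 in S52, a mean of 797 ± 192 FPKM (SD, n = 3). S38 and S44 were close, and S52 was the lowest, with the highest library 1.62-fold above it. Of the genes that averaged 100 FPKM or more, 34.3% had a highest library more than 1.5-fold above the lowest, so a spread of this size was frequent at this level. Without S52 the remaining libraries differed 1.06-fold. S52 was also the lowest for *Calcrl* after rescaling the columns to the same sum, to the same endothelial median or to the same upper quartile. The mean ranked 124, above 99.5% of genes.

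The gene nearest to *Calcrl* over the 3 libraries was *Car4*, which encodes a carbonic anhydrase of alveolar capillary ECs, at a distance of 0.056 among all genes of the table. *Car4* was at 855 FPKM in S38, 959 in S44 and 582 in S52, so the ratio of *Calcrl* to *Car4* was 1.03, 0.974 and 0.993. The next was *Cd9*, a tetraspanin gene, at a distance of 0.12. *Car4* is 1 of 5 genes listed here as markers of aerocytes, the large capillary ECs of the alveolus, with *Ednrb*, *Apln*, *Fibin* and *Tbx2*. All 5 were lowest in S52, as *Calcrl* was, which for *Car4* follows from its likeness to *Calcrl*. Their summed FPKM came to 1327 for S38, 1412 for S44 and 811 for S52, with *Car4* the largest part in each library. Taken singly, *Ednrb* spanned 2.06-fold between the highest and lowest library, *Apln* 1.68-fold, *Fibin* 2.73-fold and *Tbx2* 1.76-fold. The 5 markers of general capillary ECs (*Aplnr*, *Gpihbp1*, *Plvap*, *Lpl* and *Cd93*) had sums of 1858, 2120 and 2282 FPKM, and only *Lpl* among them was lowest in S52. Being lowest in S52 was not particular to aerocyte markers. Every gene of the platelet (4), alveolar type 2 (5), airway (5) and leukocyte (6) lists was lowest there too. So were 3 of the 10 endothelial markers, while 6 were lowest in S38 and 1 in S44. Of those 3, *Cldn5* spanned 1.684-fold and *Kdr* 1.605-fold, near the 1.617-fold of *Calcrl*, and *Esam* spanned 1.15-fold. Of all detected genes, 46.3% were lowest in S52. In bulk RNA, fewer cells of a type and less RNA per cell cannot be told apart, and the part of either in the level of *Calcrl* was not tested.

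*Calcrl* and *Ramp2*, the partners of the main adrenomedullin receptor, differed little in level. The FPKM of *Ramp2* was 1.49-fold that of *Calcrl* in S38, 1.26-fold in S44 and 2.01-fold in S52. *Ramp2* was the higher in 3 of 3 libraries, by 0.64 ± 0.34 (SD, n = 3) on the log2(FPKM + 1) scale, and the largest difference was in S52, the lowest library of both genes as deposited. *Ramp2* in S52 was 0.18 below S38 and 0.02 below S44 on that scale, where *Calcrl* was 0.60 and 0.69 below. The median difference over all detected genes was -0.083 and -0.062.

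**Figure D3:**
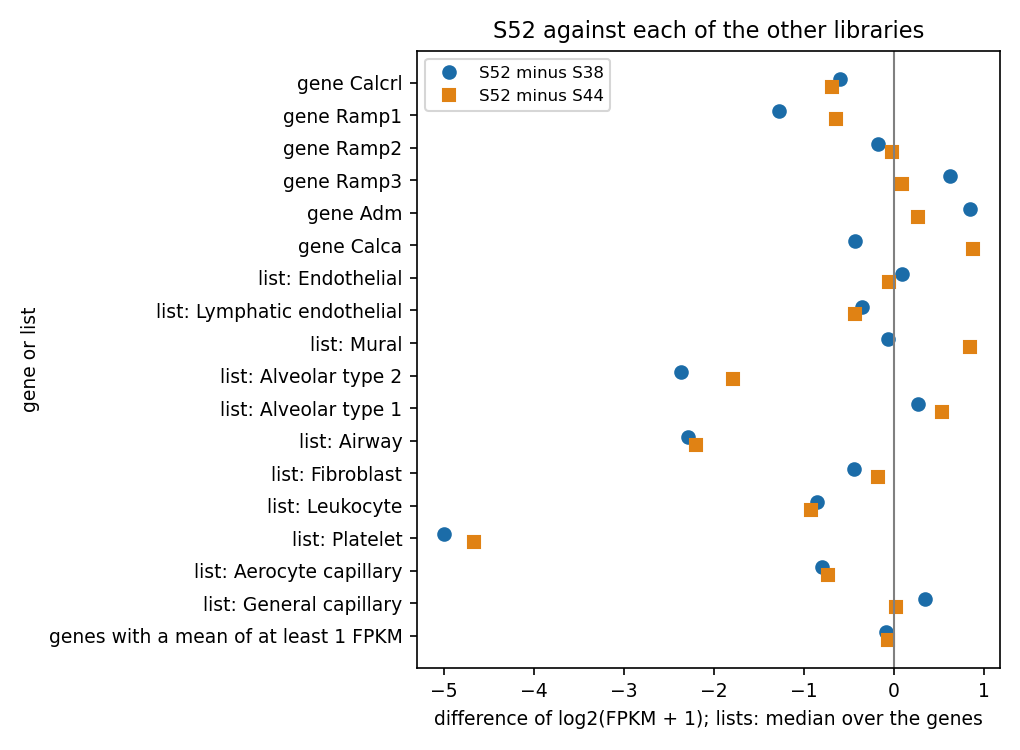
Difference of log2(FPKM + 1) of S52 from S38 (circles) and from S44 (squares) for each of the 6 genes, for the median of 11 marker lists and for the median of all detected genes. *Calcrl* (-0.60 and -0.69) lies between the lymphatic endothelial list (-0.36 and -0.43) and the aerocyte (-0.80 and -0.74) and leukocyte (-0.86 and -0.92) lists, *Ramp2* and the endothelial list lie near 0, and *Ramp3* and *Adm* are higher in S52.

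Among the ligands, *Adm*, the adrenomedullin precursor, was the highest. The gene (ENSMUSG00000030790) occupies chromosome 7, plus strand, positions 110627661 to 110629820. It was at 5.63 FPKM in S38, 8.86 in S44 and 10.9 in S52, a mean of 8.47 ± 2.66 FPKM (SD, n = 3). S38 was the lowest and S52 the highest, 1.94-fold apart, just under the 2-fold spread that 20.1% of detected genes exceeded. *Mx2*, an interferon-induced gene, and *Mras*, a small GTPase gene, were nearest to *Adm*, at distances of 0.14 and 0.15. *Calcrl* exceeded *Adm* in every library, by 7.05 in S38, 6.57 in S44 and 5.60 in S52 on the log2(FPKM + 1) scale. *Adm* is a known target of hypoxia signalling. Of 10 other hypoxia target genes listed for this comparison, 8 were detected. Of the 10, 5 were highest in S38, where *Adm* was lowest, 1 in S44 and 4 in S52. Of all detected genes, 37.15% were highest in S38, 28.9% in S44 and 33.9% in S52. *Egln3* and *Car9*, both highest in S38, were the ones not detected, with means of 0.658 and 0.058 FPKM. The 4 highest in S52 included *Slc2a1*, the glucose transporter, at 11.2, 12.1 and 16.7 FPKM in the order S38, S44, S52. *Pdk1*, a brake on pyruvate oxidation, was another, at 4.93, 5.26 and 8.69 FPKM. *Ndrg1* had the opposite order, at 65.0, 64.9 and 29.9 FPKM, and *Vegfa* hardly differed, at 138, 129 and 134 FPKM. The genes of the list thus differed in library order.

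*Calca*, which gives calcitonin or CGRP by alternative splicing, lies on the minus strand of chromosome 7 from 114631478 to 114636357 (ENSMUSG00000030669). Values per gene do not separate these products. *Calca* was at 2.38 FPKM in S38, 0.359 in S44 and 1.503 in S52, a mean of 1.41 ± 1.01 FPKM (SD, n = 3). S44 was low, at an estimated 12 fragments, against 75 in S38 and 43 in S52. The 95% exact Poisson interval of S44, 0.191 to 0.647 FPKM, did not overlap those of S38, 1.86 to 2.97 FPKM, and S52, 1.09 to 2.03 FPKM, which overlapped each other. Without S38 the mean would be 0.931 FPKM, below the detection threshold. In *Calca*, 11 of 944 read-length windows also occur in *Calcb*, the paralogue that encodes the other CGRP, and *Calcb* was listed at 0 in all 3 libraries. The genes nearest to *Calca* were *B230217C12Rik* and *Oaf*, at distances of 0.24 and 0.32. Those of *Ramp2* were at 0.23 and 0.24, little different from the first of these, and those of the other members were nearer.

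Both genes near the threshold varied much more between libraries than the abundant members. *Calca* spanned 6.64-fold and *Ramp1* 6.36-fold. Among the genes with a mean of 1 to 2 FPKM, 59.3% spanned over 2-fold and 16.4% over 6-fold, so a spread of this size was not rare at this level. *Ramp1* ran from S38 to S44 to S52 in falling order, as did the summed FPKM of 6 of the 13 marker lists: platelet, alveolar type 2, airway, leukocyte, fibroblast and pulmonary neuroendocrine. Among all detected genes, 37.15% were highest in S38 and 46.3% were lowest in S52, and the share in this full order was not counted. *Ramp2* fell in the same order as deposited, but not under any of the rescalings. The airway sums were 2780, 2316 and 401 and the fibroblast sums 82.6, 65.3 and 47.9. The leukocyte sums of 1078, 818 and 186 FPKM were mostly *Lyz2*, at 1047, 780 and 166 FPKM, and 3 of the 6 leukocyte genes were highest in S44. The pulmonary neuroendocrine sums of 11.5, 8.40 and 5.40 FPKM were mostly *Uchl1*, at 9.5, 7.3 and 4.2 FPKM, the only gene of that list detected. The genes nearest to *Ramp1* over the libraries were *Adcy5*, an adenylyl cyclase gene, which fell in the same order from 2.12 to 0.342 FPKM, and *S1pr2*, a sphingosine-1-phosphate receptor gene, at 2.12, 1.26 and 0.376 FPKM. Both were at distances of 0.12.

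Mural cells, which surround the vessels and are known to carry the CGRP receptor, were represented by 8 markers, all of them detected. The sum of these markers was 225 FPKM in S38, 135 in S44 and 211 in S52. All 8, *Acta2* and *Myh11* among them, were lowest in S44, beside 28.35% of all detected genes. S44 was also the lowest library for *Calca*, but not for *Ramp1*. Of 8 markers of pulmonary neuroendocrine cells, the epithelial cells known to make CGRP in the lung, *Uchl1* alone was detected, and *Chga*, a defining marker, had a mean of 0.028 FPKM, with *Chgb* listed at 0. No gene of 5 sensory neuron markers reached a mean of 1 FPKM, and *Tac1*, *Scn10a* and *Trpv1* were listed at 0. The part of these cells in the *Calca* and *Ramp1* values was not tested.

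Other family members were near or at 0. *Calcr*, the calcitonin receptor, which makes amylin receptors with the same RAMPs, was listed at 0 in S38 and S44 and was at 0.461 FPKM in S52. *Adm2*, the gene of the related peptide intermedin, was listed at 0 throughout, and *Iapp*, the amylin gene, had a mean of 0.469 FPKM. Of the 5 family ligands 2 were detected, and of the 5 receptor and accessory genes 4, where 48.3% of all genes were. Across the class B peptide receptors, a family of receptors for peptide hormones, *Calcrl* and *Glp1r*, the receptor for glucagon-like peptide 1, were the only ones detected of 15. *Glp1r* was at 59.9 ± 4.82 FPKM (SD, n = 3), and the next, *Vipr2*, was at 0.850 ± 0.0917 FPKM. The median over the 15 was 0.081 FPKM, against 0.784 FPKM over all genes.

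Genes that make and clear the peptides were largely present. Of 9 peptide maturation genes 6 were detected. *Pam*, the enzyme that adds the terminal amide adrenomedullin and CGRP need for activity, was the highest, at 112 ± 5.92 FPKM (SD, n = 3). *Furin*, a convertase of the constitutive secretory route, was at 23.6 ± 3.20 FPKM (SD, n = 3), whereas *Pcsk1* and *Pcsk2*, the convertases of endocrine granules, had means of 0.201 and 0.073 FPKM. All 8 genes of peptide clearance and binding were detected. *Ece1*, an endothelin-converting enzyme that also cleaves internalised peptides, was at 225 ± 32.8 FPKM, and *Ackr3*, a scavenger receptor for adrenomedullin, was at 154 ± 34.9 FPKM (SD, n = 3 for each). *Mme*, which encodes neprilysin, was low, at 3.21 ± 0.799 FPKM (SD, n = 3).

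Downstream of the receptor, all 10 coupling and desensitisation genes were detected. *Gnas*, the stimulatory G protein alpha subunit, was the highest, at 577 ± 47.0 FPKM (SD, n = 3). *Arrb1*, a beta-arrestin, was at 66.0 ± 13.2 FPKM and *Crcp*, the CGRP receptor component protein, at 18.1 ± 3.39 FPKM (SD, n = 3 for each). Of 22 genes of cyclic AMP synthesis and response, 20 were detected. *Adcy4* was the leading adenylyl cyclase of 10, at 197.2 ± 18.0 FPKM, followed by *Adcy6* at 12.6 ± 1.77 FPKM, while *Rapgef3*, the cyclic AMP sensor that activates Rap1, was at 37.2 ± 3.71 FPKM (SD, n = 3 for each). *Prkar2b*, a regulatory subunit of protein kinase A, was at 74.2 FPKM in S38, 48.8 in S44 and 1.97 in S52, a 37.6-fold span where the next in its list, *Adcy5*, spanned 6.19-fold. Platelet genes were low in the same library, and their part in this value was not tested. Of 10 cyclic AMP phosphodiesterases 8 were detected, led by *Pde4b* at 117 ± 15.8 FPKM (SD, n = 3) and *Pde3a* at 31.6 ± 4.41 FPKM (SD, n = 3). Over all 76 pathway genes other than the members and the hypoxia targets, 53 (69.7%) were detected, beside 48.3% of all genes, and their median was 7.82 FPKM. The lists were chosen with earlier results of these data known, so these shares are given as a description.

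**Figure D4:**
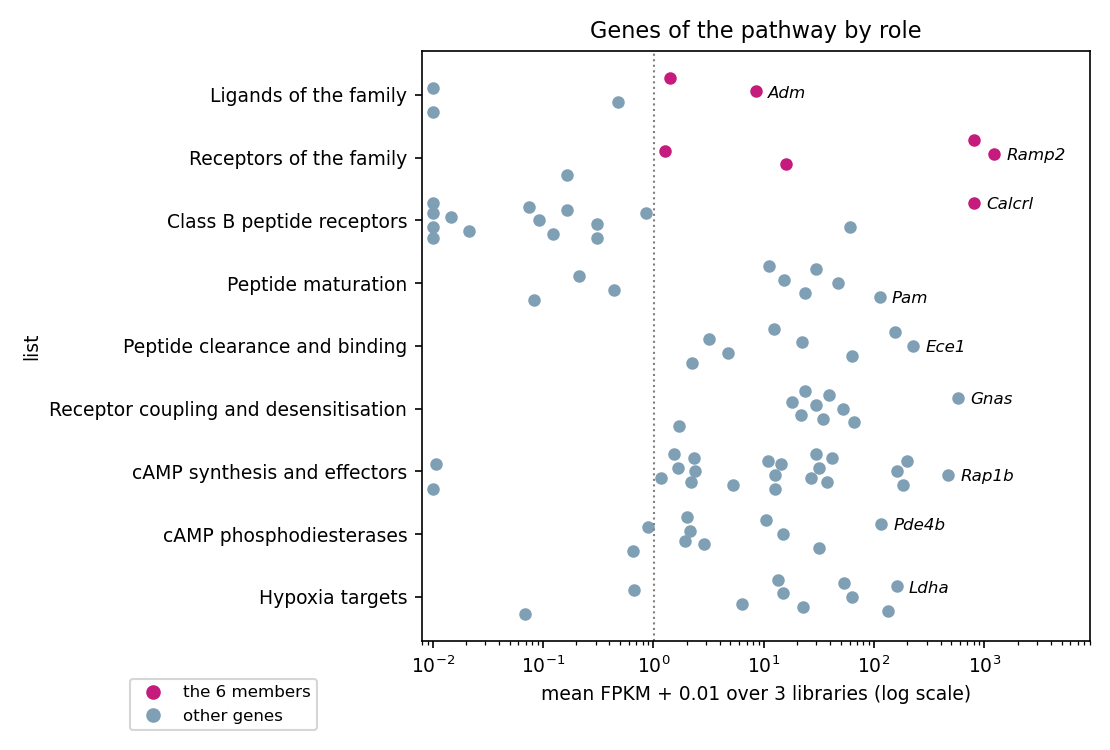
Mean FPKM + 0.01 over the 3 libraries (log axis) for each gene of 9 role lists; vertical scatter within a list only separates points, and the highest gene of each list is named. *Calcrl* stands above the other 14 class B receptors, and *Gnas*, *Rap1b*, *Ece1*, *Ldha*, *Pde4b* and *Pam* each exceed 100 FPKM.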

How the data were processed

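Poly-A RNA of 3 adult lung EC libraries was sequenced as unstranded paired reads of 51 bp. Levels are FPKM by gene symbol on the mm10 build, as the authors made and deposited them. The submitters' processing notes list Trimmomatic 0.36, TopHat2 2.1.0 and Cufflinks 2.2.1 without roles, and the gene annotation is not given in the sources used here. The methods of the paper describe STAR and HTSeq counts, which are another table.

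Columns were mapped to libraries by title, and 0 per-sample columns were left out. Means and SDs used FPKM, and differences used log2(FPKM + 1). With 1 group, neither group tests nor count models apply. For depth, 7077 genes whose GENCODE M21 annotation has 1 basic transcript (800 to 4000 bp) were used, and the depth taken was that at which low FPKM times length came closest to whole fragments. Of the low values, 74.9% to 78.8% then fell no more than 0.15 from a whole fragment. On 3 simulated depths the error was at most 0.279%. Fragments per gene use the longest basic transcript and are approximate, and a count of 0 allows 3 fragments, or 0.036 to 0.041 FPKM for *Ramp1*. Likeness was the Euclidean distance of log2(FPKM + 1) over 3 libraries, naming the 2 nearest genes of each member. Named genes are the members, these neighbours and genes of role and marker lists. *Vps25* and *Gm11978* were added after their values were seen, for their overlap. Members and lists were chosen with earlier results of these data known. Alternatives were leaving out each library, 3 rescalings, another pseudocount, other detection thresholds and ranking only detected genes. Python 3.11.15, pandas 2.3.3 and scipy 1.17.1 were used.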

Additional observations from a re-analysis of the deposited data

How the results depend on the processing

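Of 142 values recomputed under the alternatives, 121 changed by less than the spread between libraries or, for counts and spans, by no more than 1.5-fold. Leaving out 1 of 3 libraries cannot move a mean by as much as the SD of the 3. Levels, log2 ratios and shares with a library left out were thus bound to fall among the 121. A span also cannot change when the middle library is left out, so the 121 is no measure of stability. Rescaling each column to a common sum, below that of each deposited column, moved the mean of *Calcrl* to 584 FPKM, of *Ramp2* to 897 FPKM and of *Ramp3* to 11.4 FPKM, and put *Ramp1* at 0.984 FPKM, under the detection threshold. With only detected genes ranked, the percent of genes below was 98.9 for *Calcrl*, 3.31 for *Ramp1*, 99.4 for *Ramp2*, 60.4 for *Ramp3*, 41.9 for *Adm* and 4.98 for *Calca*, because fewer genes were ranked. A pseudocount of 0.1 FPKM raised the log2 ratio of *Ramp2* to *Ramp1* to 10.1. Of the 6 members, 3 were detected at a threshold of 10 FPKM, 4 when 1 FPKM was required in every library, and 4 without S38. The shares of all genes detected in every library and without S38 were not counted. Leaving out each library in turn, the percent of genes below *Ramp2* ranged from 99.69 to 99.74. With libraries left out in turn, the ratio of the highest to the lowest library ranged from 1.06 (without S52) to 1.62 for *Calcrl*. It ranged from 2.05 (without S52) to 6.36 for *Ramp1*, from 1.23 (without S38) to 1.94 for *Adm* and from 1.58 (without S44) to 6.64 for *Calca*. Rescaling to a common sum raised this ratio to 1.87 for *Calcrl*, 7.83 for *Ramp1*, 9.22 for *Calca* and 1.55 for *Ramp2*. The same rescaling lowered it to 1.575 for *Adm* and 1.29 for *Ramp3*. *Adm* reached 2.01 after upper-quartile rescaling, and *Calca* reached 7.33 after rescaling to the endothelial median. Detected genes that spanned over 2-fold, 2363 in all libraries, numbered from 600 (without S52) to 1741 (without S44), with 1572 without S38. Without S52, *Ramp1* had a higher mean than *Calca*, so 4 of the 5 neighbouring pairs kept their order. The library that was lowest for *Ramp2* was S52 as deposited and S44 under each rescaling. No paired analysis was possible because the 3 libraries form 1 group. Depth is estimated, so the fragments behind *Ramp1* and *Calca* are approximate.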
